A study of Mus musculus with 2 samples.

Results

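Long unbroken peaks of H2BK120ub were examined in liver cells with and without UBR7. H2BK120ub is histone H2B carrying a single ubiquitin on the lysine that gives the mark its name. In general, the mark is written by the RNF20-RNF40 ligase together with the elongating RNA polymerase, and it is removed again by ubiquitin proteases such as USP22. It therefore tends to spread as a long block over the bodies of transcribed genes and to loosen the nucleosomes there. UBR7 is an E3 ubiquitin ligase with a PHD finger for which activity toward this residue has been described.

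A broken-up domain was defined as a WT peak longer than 10000 bp that met at least 1 UBR7-KO peak, none of which was itself longer than 10000 bp. An overlap of 1 bp was enough, and the autosomes other than chromosome 19 were searched. This rule found 3138 domains among the 6922 WT peaks over 10000 bp on these chromosomes, and among 101866 WT peaks in all. They spanned 51.2 Mb, or 15.5% of the length covered by WT peaks on the same chromosomes. The domains were chosen by the lengths of the WT and UBR7-KO peaks and by their overlap, so the number and length of the peaks and the cover they leave are given as descriptions.

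The data came from 2 chromatin immunoprecipitation sequencing (ChIP-seq) libraries of primary liver cells, 1 of WT mice and the other of mice with the genotype Alb-Cre;UBR7fl/fl, called UBR7-KO. Per the methods, the cells were taken from 8-week-old male mice on a C57BL/6 background, and the deletion was made specific to the liver with Alb-Cre. As general background, the albumin promoter of this Cre is active in hepatocytes. Whether other cell types of the liver lost UBR7 was not analysed here. The labels call the same cells conditionally immortalized and grown in DMEM with fetal bovine serum, and the number of animals behind each library is not given in the sources used here. With 1 library per genotype, every difference below lies between 2 libraries and has no replicate error.

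Positions are in the human build hg19, whereas the labels give mouse as the organism, and whether mouse reads were aligned to a human genome was not tested. No gene annotation or sequence of hg19 was used here, so domains are given by position, and neither hepatocyte markers nor the UBR7 locus were analysed here. On the chromosomes searched, 96626 peaks were listed for WT and 121127 for UBR7-KO. Numbers of reads are not known for either library. The background under each peak was recovered from its pileup, which is the height of stacked fragments, and its fold enrichment, which is that height over the background with 1 added to both. Its floor, the 1st percentile over each list, was 1.81 in WT and 1.16 in UBR7-KO, a ratio of 0.640. The floor of such a list can fall with the depth of its library, and whether a control library set it is not given. The parts of depth and genotype in the results below cannot be told apart.

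To place the broken-up domains among the others, each WT domain was sorted by the UBR7-KO peaks on it. The 3138 broken-up domains made up 45.3% of the WT domains (95% Wilson interval 44.2 to 46.5). A further 2727 WT domains (39.4%) still met an UBR7-KO peak over 10000 bp and are called kept, and 1057 (15.3%) met no UBR7-KO peak. The same sorting with the lists exchanged served as background. It called 939 of 4182 UBR7-KO domains (22.5%, interval 21.2 to 23.7) broken up in WT, whereas 2984 (71.4%) were kept and 259 (6.19%) met no WT peak. The WT share was thus 2.02 times that of the exchange. The UBR7-KO list has fewer peaks over 10000 bp, and thus fewer that could keep a WT domain. Wilson intervals cover counting error only, and neighbouring domains are not independent.

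**Figure D1:**
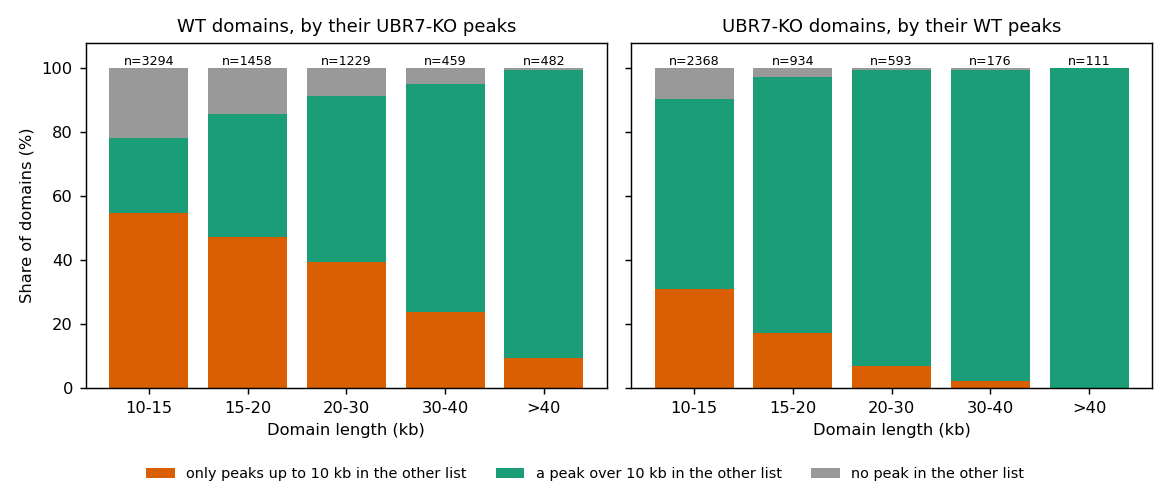
Share of domains, in percent, by domain length in kb, for WT domains sorted by their UBR7-KO peaks (left) and UBR7-KO domains sorted by their WT peaks (right). Orange bars are broken-up domains, green bars kept domains and grey bars domains without a peak in the other list. The orange share fell from 54.9% to 9.34% with length on the left and from 30.9% to 0% on the right.

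Breaking up was commonest among the shortest WT domains. Of the 3294 domains of 10 to 15 kb, 1807 (54.9%, interval 53.2 to 56.6) were broken up. The share was 47.4% at 15 to 20 kb, 39.5% at 20 to 30 kb and 23.97% at 30 to 40 kb. Among the 482 WT domains over 40 kb, 45 (9.34%, interval 7.05 to 12.3) were broken up, 434 were kept and 3 met no UBR7-KO peak. In the exchange, 30.9% of UBR7-KO domains of 10 to 15 kb and 0 of 111 over 40 kb were broken up, which allows a share of up to 3.35% (upper end of the Wilson interval). The WT share lay above that of the exchange, with intervals that do not meet, in each of the 5 length classes. The limit of 10000 bp can bear on this fall with length, and its part was not tested. With 20 kb as the limit in both lists, 65.1% of the 2170 WT domains over 20 kb were broken up.

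The broken-up domains had a median length of 13996.5 bp (quartiles 11589 and 18740.5 bp), and the longest spanned 84648 bp. The kept WT domains were longer, at a median of 20331 bp, and those without an UBR7-KO peak were shorter, at 12926 bp.

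The name "broken up" holds in the literal sense for at most about every other domain, since a division needs at least 2 UBR7-KO peaks. A peak that overlaps the domain by 1 bp is counted as well. A single UBR7-KO peak lay on 1565 of the 3138 domains (49.9%, interval 48.1 to 51.6), so that these were shortened or displaced rather than divided. The others held 2 to 7 UBR7-KO peaks. There were 1069 domains (34.1%) with 2 peaks, 357 (11.4%) with 3, 114 (3.63%) with 4, 26 with 5, 6 with 6 and 1 with 7. At least 2 peaks were thus found on 1573 domains (50.1%), against a background of 44.9% over all WT domains and 56.3% among the kept ones. The first background includes the domains without any UBR7-KO peak, which the rule bars, and over the 5865 WT domains that met a peak it was 53%, above the share of the broken-up ones. In the exchange, 457 of the 939 broken-up UBR7-KO domains (48.7%, interval 45.5 to 51.9) held at least 2 WT peaks. A division into several peaks was therefore no more frequent here than among kept domains. Kept domains were longer, however, and the shares were not compared at like length. Among broken-up domains the share with at least 2 peaks rose from 43.1% at 10 to 15 kb to 86.7% over 40 kb.

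The number of UBR7-KO peaks followed the length of the domain. The mean rose from 1.53 peaks at 10 to 15 kb to 2.11 at 20 to 30 kb and 3.22 over 40 kb. Per 10000 bp of domain, it fell from 1.28 to 0.893 and 0.672, a fall that the rule partly fixes, since it asks for at least 1 peak however short the domain. Across the 3138 domains, Spearman's rho between length and number of peaks was 0.26. Domains share their libraries, and this value is a description.

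Next, the share of each domain still covered by UBR7-KO peaks was measured. The median was 37.7% (95% order-statistic interval 36.4 to 38.9, quartiles 20.2 and 58.6%), and the whole range ran from 0.0219 to 98.99%. In total, UBR7-KO peaks covered 19.7 of the 51.2 Mb, or 38.4%. Under 50% of the length was covered in 2066 domains (65.8%), against a background of 50.4% over all WT domains, which the rule itself shifts. Under 10% was covered in 367 domains (11.7%), and at least 90% in 27 (0.860%). In kept WT domains the median was 82.3%, and in the exchange broken-up UBR7-KO domains were covered by WT peaks at a median of 46.8% (interval 44.0 to 48.5).

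**Figure D2:**
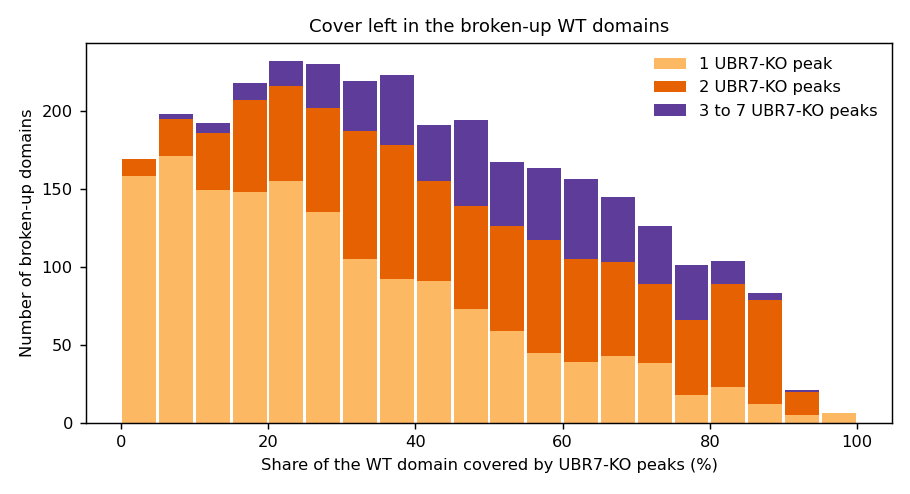
Number of broken-up WT domains by the share of their length covered by UBR7-KO peaks, in steps of 5 percentage points, stacked by the number of UBR7-KO peaks on the domain. Domains with 1 peak gather at low shares (median 25.1%), and those with 2 peaks lie higher (median 48.6%).

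Domains with more UBR7-KO peaks were covered further, which is partly given by the count, since each peak adds to the cover. The median share was 25.1% with 1 peak (quartiles 12.1 and 43.3%), 48.6% with 2 peaks, 52.8% with 3 and 53.4% with 4. In bases, the median rose from 3656 bp with 1 peak to 7386 bp with 2 and 11526.5 bp with 4. The share fell with the length of the domain, from a median of 40.8% at 10 to 15 kb to 28.0% over 40 kb, while the covered bases rose from 4911 to 12912 bp. The rule partly fixes this fall, since no single UBR7-KO peak may exceed 10000 bp however long the domain. The longest UBR7-KO peak on a domain was limited to 10000 bp by the rule, and its median was 5474 bp. It was under 5000 bp in 1413 domains (45.0%) and over 9 kb in 316 (10.1%).

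The domains on either side of the limits of the rule are given as a description. The shortest broken-up domains were chr17:3604107-3614107 (31.4% covered by 3 peaks) and chr16:16271220-16281221 (16.5% covered by 1 peak), within 2 bp of the limit. Just outside lay chr4:8724871-8734870, a WT peak of exactly 10000 bp covered at 83.4%, and chr10:48380984-48390976 with 9993 bp, covered at 42.7%. At the limit set on UBR7-KO peaks, chr17:48020740-48033497 and chr11:114117433-114134248 were included with longest peaks of 9997 and 9996 bp. Conversely, chr1:54577607-54621086 and chr2:234231798-234245677 counted as kept with a longest peak of 10005 bp each, although the first was covered at only 23.01%.

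To see where the remaining cover lay, each domain was divided into 10 equal bins from its low to its high coordinate. The mean cover of a bin ran from 36.1% in the first and 36.2% in the last to 41.9%. The middle 20% was covered at 41.0% and the outer 20%, 10% at either end, at 36.2%, a ratio of 1.13. The ratio was 1.21 in kept WT domains and 1.23 in the exchange, so over all broken-up domains the drop toward the ends was not larger. Split by UBR7-KO peaks, it was 1.26 in broken-up domains with 1 peak, 1.08 with 2 and 1.03 with 3 or more. For all broken-up domains the order of middle and ends reversed when peaks with a fold enrichment under 2.2 were left out of both lists. The ends also lay above the middle when no UBR7-KO peak over 5000 bp was allowed. Cover was 39.8% on the low-coordinate and 40.3% on the high-coordinate side of the midpoint. The strand of transcription was not known here, so 5′ and 3′ parts of genes were not separated.

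**Figure D3:**
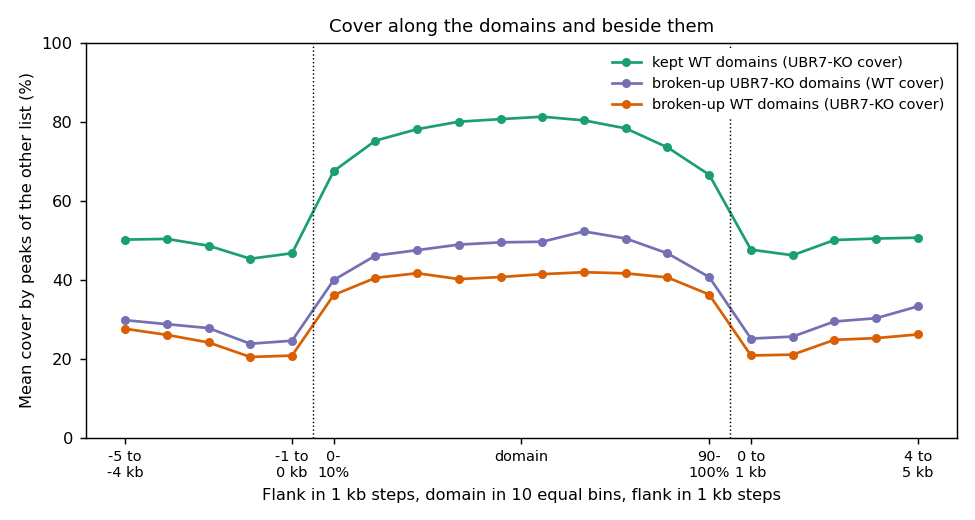
Mean cover in percent by peaks of the other list, in 10 equal bins along the domain and in 1 kb steps over 5 kb on either side, for broken-up WT domains (orange), kept WT domains (green) and broken-up UBR7-KO domains covered by WT peaks (violet). The orange line stands at 36 to 42% inside the domains, drops to 20.8% in the adjoining 1 kb and rises to 26.8% at the far end of the flanks.

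Outside the domain the cover dropped, in part by the rule, which asks for an UBR7-KO peak inside but not in the flanks. In the 5000 bp on either side of a broken-up domain, UBR7-KO peaks covered 23.7% on average, against 40.1% inside, a ratio of 1.69. The cover was 20.8% in the adjoining 1 kb and 26.8% in the outermost 1 kb of the flanks. UBR7-KO peaks covered 10.5% of these chromosomes as a whole, so the flanks too were above the genome average. Kept domains, which also need an UBR7-KO peak inside, were covered at 76.1% inside and 48.6% beside them, a ratio of 1.57. Another WT peak lay within 5000 bp of 2559 broken-up domains (81.5%), at a median distance of 1776.5 bp to the nearest one. This was no particular feature of them, since the same held for 85.4% of all WT domains, at a median of 1628 bp, and for 90.8% of the kept ones.

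Of the 6276 ends of the broken-up domains, 1745 (27.8%) were covered. An UBR7-KO peak reached both ends of 199 broken-up domains (6.34%) and a single end of 1347 (42.9%). In 1592 domains (50.7%, interval 49.0 to 52.5) neither end was covered, against 486 kept domains (17.8%) and 414 broken-up UBR7-KO domains in the exchange (44.1%, interval 40.9 to 47.3). The contrast with kept domains is partly fixed by the rule, which gives those a longer UBR7-KO peak. The low-coordinate end was covered in 875 and the high-coordinate end in 870 domains. Of the 5356 UBR7-KO peaks on broken-up domains, 3659 (68.3%) lay wholly inside and 1697 (31.7%) ran past an end. A second WT peak was met by 359 of the 5356 (6.70%), which lay on 397 domains (12.7%). The rule leaves out domains with the longest UBR7-KO peaks, so this count is not a measure of how often UBR7-KO peaks bridge WT gaps.

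Where a single UBR7-KO peak was left, it took no fixed place. With each domain cut into 3 equal parts, the midpoint of the peak lay in the low-coordinate part in 541 cases (34.6%), in the central part in 469 (29.97%) and in the high-coordinate part in 555 (35.5%). The peak stayed on 1 side of the domain's midpoint in 1076 of the 1565 domains (68.8%). It lay wholly inside the domain in 994 cases, with a median length of 3922.5 bp. In the other 571 cases it ran past an end. The median length was then 5783 bp, and the median of the bases outside, taken separately, was 1092 bp.

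In domains with several UBR7-KO peaks the gaps between them, which the length of the domain limits, were mostly short. The 2265 gaps had a median of 1726 bp (quartiles 1306 and 3886 bp), and 1312 of them (57.9%) were at most 2000 bp. Gaps in kept domains and in the exchange were not measured, so this share has no background. The smallest gap in broken-up domains, 1097 bp, was also the smallest distance between any UBR7-KO peaks on these chromosomes. The smallest between WT peaks was 1169 bp. The largest piece held a median of 64.1% of the cover. Of the uncovered length in these 1573 domains, 7.59 of 14.8 Mb (51.3%) lay between peaks and the rest at the ends. The longest uncovered stretch, with a median of 4922 bp, reached an end of the domain in 705 of the 1573 cases (44.8%) and lay between peaks in the others. Uncovered length was thus divided about evenly between ends and gaps where both were possible. Domains with a single peak can be uncovered at their ends alone.

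Joining peaks across such gaps changed the class of many domains. When UBR7-KO peaks within 2000 bp of each other were joined, 944 of the 3138 domains (30.1%, interval 28.5 to 31.7) met an UBR7-KO peak over 10000 bp and were no longer broken up. Of the domains still broken up, 602 held at least 2 pieces, against 1573 before joining. When peaks within 5000 bp were joined, 1579 (50.3%) were no longer broken up, and 197 of the others held at least 2 pieces. The exchange fell alongside, from 22.5% to 15.04% and 10.4% of UBR7-KO domains, while the WT share fell from 45.3% to 31.7% and 22.5%.

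The longest broken-up domains were then taken singly. The longest, chr15:25414451-25499098, spanned 84648 bp with a WT pileup of 6.41 and a fold enrichment of 2.43. It held 5 UBR7-KO peaks of 998, 7662, 1998, 3425 and 3312 bp, which together covered 20.5%. The first pair lay within 10624 bp of the low-coordinate end and the others were scattered, with an open stretch of 24349 bp before the next. Their fold enrichments ran from 2.01 to 2.35.

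On chr3:48656810-48728110, with 71301 bp, a single UBR7-KO peak of 3939 bp remained (5.52% covered). It began 60092 bp into the domain, and this was the longest uncovered stretch of all broken-up domains. On chr1:6357220-6425711, with 68492 bp, 3 UBR7-KO peaks of 386, 4410 and 1703 bp covered 9.49%, and none reached an end. These long domains kept little, although their WT fold enrichments of 2.43 and 2.26 were close to or above the median of 2.27 for broken-up domains.

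The domains with the most pieces were covered better. On chr17:9119416-9161136 (41721 bp) 7 UBR7-KO peaks of 668, 4549, 7185, 6485, 1824, 1126 and 4243 bp covered 55.2%. The last ran 3064 bp past the high-coordinate end. On chr12:58117304-58172727 (55424 bp) 6 peaks covered 31.6%, and the last 11950 bp of the domain were left open. On chr17:41972658-42025323 (52666 bp) 6 peaks covered 38.2%, and the last of them, with 8880 bp, lay mostly outside, by 7279 bp.

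**Figure D4:**
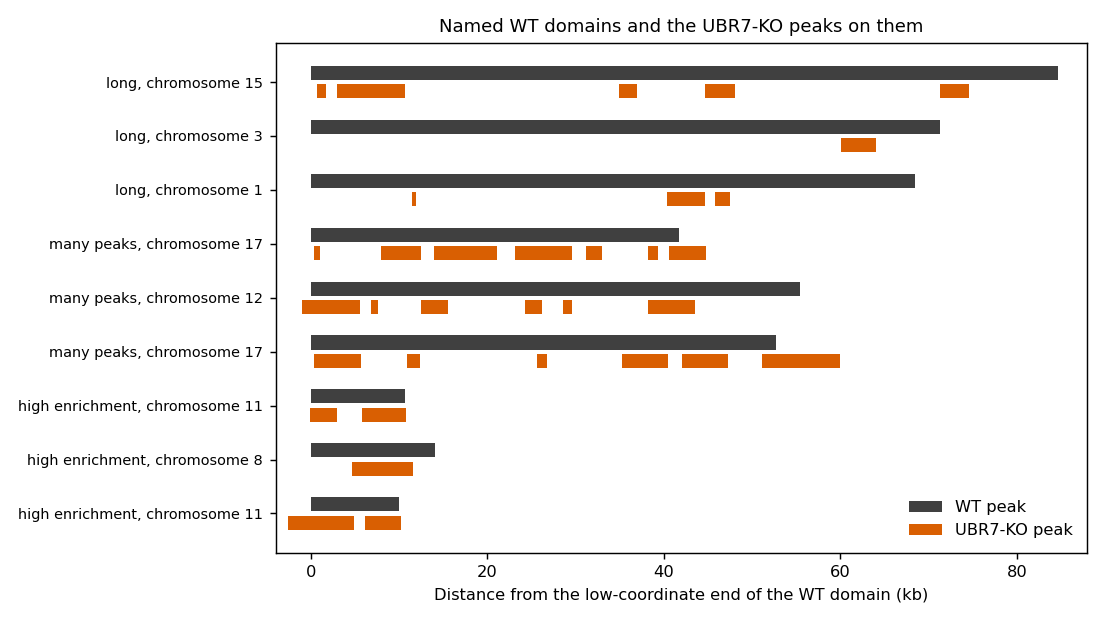
Broken-up WT domains drawn to scale from their low-coordinate end in kb, with the WT peak in dark grey and the UBR7-KO peaks in orange: the 3 longest, the 3 with the most UBR7-KO peaks and the 3 with the highest WT fold enrichment. UBR7-KO peaks leave most of the 3 longest domains uncovered and reach past an end in 5 of the other 6 domains.

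At either extreme the rule took in domains that were hardly changed or hardly met. The largest shares were found on chr6:42874194-42884213 (98.99%), chr12:132819426-132829456 (97.8%) and chr11:8049022-8059133 (97.3%). Each spanned little more than 10000 bp and carried a single UBR7-KO peak of 9833 to 9944 bp, just under the limit. The smallest shares were found on chr17:37012644-37040072, where a peak of 7691 bp overlapped the domain by 6 bp, on chr22:45494011-45504070, with 8 bp, and on chr20:61516223-61526678, with 11 bp. These UBR7-KO peaks lay beside the domain rather than on it. With an overlap of at least 500 bp required, 3041 domains remained in place of 3138.

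The WT signal was compared as a measure that the rule did not use. The median WT fold enrichment was 2.27 in broken-up domains (quartiles 2.15 and 2.40), 2.41 in kept domains and 2.22 in domains without an UBR7-KO peak. The WT pileup followed the same order for kept domains, with medians of 7.98 against 7.18 in broken-up ones, and was 7.11 in those without an UBR7-KO peak. The background recovered under them differed less, at 2.59 in broken-up and 2.69 in kept domains. Broken-up domains were thus weaker than kept ones within the WT list, with quartile ranges that overlap. Length moved with this difference, and among domains of 10 to 15 kb the medians were 2.24 and 2.32. No test was run, since domains of 1 library are not replicates.

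The share of domains broken up fell as the WT fold enrichment rose. It was 55.7% (interval 53.4 to 58.1) in the 25% of WT domains with the lowest fold enrichment, up to 2.17, and 30.4% (interval 28.3 to 32.6) in the 25% with the highest, above 2.47. Among domains of 10 to 15 kb the change was smaller, from 57.8% to 51.2%, with overlapping intervals of 54.9 to 60.6 and 47.1 to 55.3. The other classes moved more between these groups. The kept share rose from 20.6% to 62.9% over all lengths, and from 16.8% to 36.0% at 10 to 15 kb. The share without an UBR7-KO peak fell from 23.7% to 6.70%, and from 25.3% to 12.8% at 10 to 15 kb. In broken-up domains the cover left behind rose with the WT fold enrichment. The median share covered was 31.3% in those of the lowest group and 52.2% in those of the highest. Among those of 10 to 15 kb these medians were 33.4% and 58.6%, so the relation held at like length. Spearman's rho between WT fold enrichment and share covered was 0.23 over the 3138 domains and 0.26 over the 1807 shorter ones, both given as descriptions.

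The domains with the highest WT fold enrichment kept much of their length. On chr11:1440026-1450716 (fold enrichment 3.17, pileup 9.57), 2 UBR7-KO peaks covered 74.0% and reached both ends, with a gap of 2784 bp between them. On chr11:128556076-128566114 (fold enrichment 3.10), 2 peaks covered 87.6% and again reached both ends, and the second had a fold enrichment of 2.99 in its own list. On chr8:97161930-97176021 (fold enrichment 3.11, pileup 11.6), a single peak of 6989 bp covered the centre, 49.6% of the domain.

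The limit of the peak calls bears on weak domains. The lowest fold enrichment was 2 in both lists. Since 1 is added to pileup and background, the plain ratio of pileup to background needed to reach 2 depends on the background, and at the floor it was 2.55 in WT and 2.86 in UBR7-KO. With each domain's WT background scaled by the ratio of the floors, 843 broken-up domains (26.9%) had a WT plain ratio under the one needed in UBR7-KO. The same held for 286 kept domains (10.5%) and 369 domains without an UBR7-KO peak (34.9%). When each peak had to reach a plain ratio of 3, which is above the ratio needed at the floor of either list, 1927 WT domains were left. Of these, 529 (27.5%) were broken up and 51.4% met no UBR7-KO peak, and the share in the exchange was 13.2%. The lengths of the peaks stayed those called under the separate limits, and the part of these limits in the breaking up of the domains was not tested.

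The UBR7-KO peaks on broken-up domains were longer than other UBR7-KO peaks of up to 10000 bp, with much the same fold enrichment and a slightly higher pileup. Their median length was 3780.5 bp (quartiles 1854 and 6361 bp), and that of the 111589 others was 1249 bp. Longer peaks meet a domain more readily, so peaks of like length were compared. At 3 to 6 kb the median fold enrichment was 2.13 in 1675 peaks on broken-up domains and 2.13 in 15521 others, and at 6 to 10 kb it was 2.12 and 2.11. The median pileup in these classes was 4.58 against 4.42 and 4.56 against 4.45. The background under the peaks was higher on broken-up domains, with medians of 1.58 and 1.504 in the first of these classes. At 3 to 6 kb the highest fold enrichment was 3.30 on broken-up domains and 4.23 among the more numerous others.

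Finally, the chromosomes were compared. The share of WT domains broken up ran from 35.2% on chromosome 4 (58 of 165, interval 28.3 to 42.7) to 60.4% on chromosome 15 (139 of 230, interval 54.0 to 66.5). It exceeded the share in the exchange on 21 of 21 chromosomes. The shares were lowest, next to chromosome 4, on chromosomes 22 (35.8%), 9 (36.1%) and 16 (37.6%), and highest, next to chromosome 15, on chromosomes 6 (57.5%) and 13 (56.7%). Many intervals overlapped, such as those of chromosomes 6, 13 and 15. In number, chromosomes 1 and 17 carried the most broken-up domains, with 373 and 250. Per 10 Mb, chromosome 17 carried 30.8 and chromosome 4 carried 3.03.

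**Figure D5:**
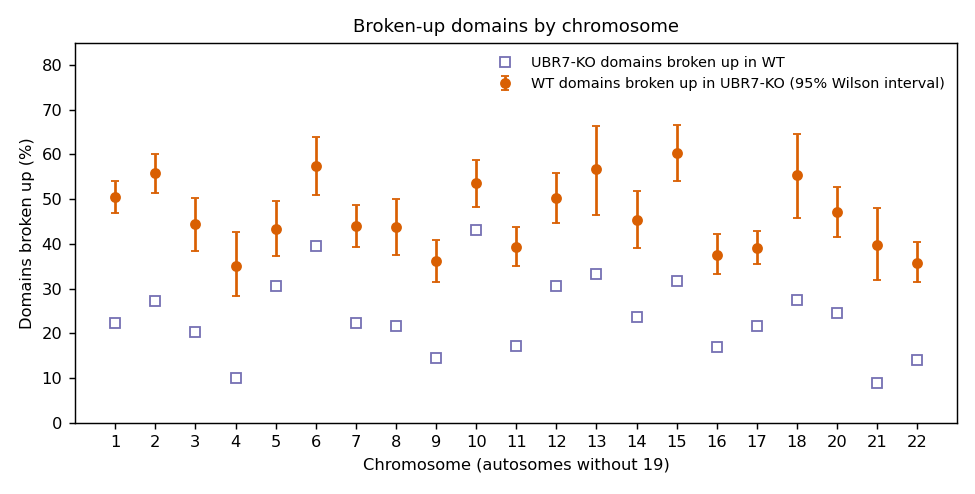
Share of domains broken up, in percent, on each of 21 autosomes, for WT domains (orange points with 95% Wilson intervals) and for UBR7-KO domains sorted by WT peaks (violet squares). The orange points lie between 35.2% and 60.4% and above the square of the same chromosome throughout.

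What was left of the domains varied between chromosomes as well, little in the mean number of peaks and more in the cover. The share of broken-up domains with at least 2 UBR7-KO peaks ran from 42.9% to 59.3%. The mean number of UBR7-KO peaks per broken-up domain lay between 1.66 and 1.82, and the median share covered between 30.4% on chromosome 9 and 48.9% on chromosome 13. Chromosomes with more WT domains per 10 Mb had a lower share broken up (Spearman's rho of -0.45 across 21 chromosomes) and a higher share kept (0.48). Chromosomes are not replicates, and both values are descriptions. Broken-up domains also lay further from kept ones than kept domains lay from each other. A kept domain was found within 50 kb of 1290 broken-up domains (41.1%, interval 39.4 to 42.8) and of 1902 kept domains (69.7%). The same held for 432 domains without an UBR7-KO peak (40.9%) and for 3624 of all WT domains (52.4%). An UBR7-KO peak over 10000 bp that meets neighbouring WT domains makes them all kept. The rule can thus fix part of the closeness among kept domains, and the size of this part was not tested.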

How the data were processed

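H2BK120ub was profiled by ChIP-seq in 1 WT and 1 UBR7-KO library of primary liver cells, grouped by the genotype in the labels. Per the study's methods, the authors mapped reads to hg19 with BWA aln and called the peaks of either library separately by MACS, at a q-value cutoff of unstated size. The labels' processing notes name Bowtie 1.1.2, FastQC and hg19 instead. The methods name rabbit IgG beside the antibody, and whether an IgG or input library served as control for the peak calls, and the caller mode, are not given in the sources used here. The deposited lists give position, length, pileup (a signal of the authors' peak caller that depends on depth) and fold enrichment (a ratio to the background used in the peak calls). Read counts are not used here, so depth is seen at most indirectly, through the recovered background.

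The UBR7-KO list lost 6 empty lines. Intervals were compared in Python 3.11.15 (numpy 2.4.6, pandas 2.3.3, scipy 1.17.1), and counts and covered bases were checked against bedtools 2.31.1 and on simulated domains. Chromosome lengths came from GenomeInfoDb 1.38.1. Positions count from 1. With 1 library per genotype, no test was run and no p-value is given. Domains were named by length, number of peaks, share covered, WT fold enrichment and closeness to the limits. The domains, measures and lists were chosen with earlier results of these data known. The planned gene lists and marker checks were not analysed here, as only mouse gene tables were at hand. Alternatives covered the length limit, joining of peaks, thresholds, list size, overlap and chromosomes.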

Additional observations from a re-analysis of the deposited data

How the results depend on the processing

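The alternatives that allowed no breaking peak over 5000 bp, asked for at least 2, or asked for a pileup of 3 times background were chosen after seeing the data. The share of WT domains broken up stayed above the share in the exchange under each of the 12 alternatives. In each pair below, the first share is that of WT domains and the second that of the exchange. With 5000 bp counted as broad, 4748 domains (28.8% and 19.7%) were broken up with a median cover of 29.9%, and with 20 kb 1412 (65.1% and 24.3%) with 50.7%. Joining breaking peaks within 2000 bp gave 31.7% and 15.04% with a cover of 31.6%. Joining them within 5000 bp gave 1559 domains (22.5% and 10.4%), a cover of 27.4% and 1.13 UBR7-KO peaks per domain. A fold enrichment of at least 2.2 gave 1385 domains (28.3% and 15.9%), a cover of 20.5% and a ratio of middle to outer cover of 0.957, reversed from 1.13. A pileup of at least 2.5 times background, below the ratio that UBR7-KO calls need at the floor, gave 44.1% and 20.96%, and one of at least 3 times gave 529 domains (27.5% and 13.2%) with a cover of 26.6%. The ratio of middle to outer cover was then 1.01. Lists of equal size gave 42.5% and 21.1% with a cover of 30.95%. An overlap of at least 500 bp gave 43.9% of WT domains and all autosomes with X gave 43.97%. Without breaking peaks over 5000 bp, 1413 domains (20.4% and 9.16%) had a cover of 20.8% and a ratio of 0.888, reversed. With at least 2 breaking peaks, 1573 domains (22.7% and 10.9%) had a cover of 49.9%. The WT fold enrichment of broken-up less that of kept domains was -0.147, and -0.0844 among domains of 10 to 15 kb. The causes of the reversals were not tested. Joining breaking peaks, lowering their limit alone and asking for at least 2 can by construction only lower the number, whereas the limits of 5000 bp and 20 kb move both lists, and domains can enter as well as leave. No paired analysis was possible because there is only 1 library of either genotype, and no replicate could be left out. A restriction to protein-coding genes was not run, as no hg19 annotation was used.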
